A study of Rattus norvegicus with 36 samples.

Results

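The genes described here are 32 genes of glycolysis and of the response to low oxygen, taken by symbol from an RNA-seq table of rat colon with 17352 usable entries. All 32 had a row. Of these, 30 passed the filter on low values, as did 11544 of all entries: at least 1 RPKM (reads scaled to gene length and to the mapped reads of the library) in at least 3 of 18 libraries. Tpi1, the triose phosphate isomerase of the pathway, was listed at 0 in every library, and Bnip3, a mitophagy receptor gene, reached 0.47 RPKM at most, so neither was tested.

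The libraries came from colonic tissue of male F344 rats at 30 weeks of age, in 6 groups of 3 rats. WT rats gave normal colon on the AIN93 control diet (WCN) or on the same diet with 10% w/w freeze-dried baby spinach, SPI (WSN). Pirc rats, which carry the Apc am1137 mutation and develop colon polyps, gave normal-looking colon (PCN, PSN) and tumors (PCT, PST) on the control diet and on SPI, respectively. The study matched tumor and normal-looking tissue within the same Pirc rats.

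Glycolysis turns glucose into pyruvate in the cytosol. Its committed steps are set by hexokinases and phosphofructokinases, which exist as isozymes with different tissue patterns, and lactate made from pyruvate leaves the cell through monocarboxylate transporters. When oxygen falls, the prolyl hydroxylases stop marking HIF-1α for destruction, and the HIF heterodimer binds hypoxia response elements and raises glycolytic enzymes, the glucose transporter GLUT1 and factors such as VEGF. HIF-1α is controlled mainly as a protein, so the Hif1a transcript does not report its activity. In the colon, the epithelium lies next to an almost oxygen-free lumen and its upper cells normally show a hypoxia response.

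Relative depth, read from the spacing of the lowest values, ran from 0.626 to 1.521 over the libraries. Epithelial markers summed to between 7516 and 11515 RPKM in every library. The 14 smooth muscle markers summed to between 1498 and 10243 RPKM in the 12 normal libraries and to between 215 and 436 in the 6 tumors, so the normal samples held muscle RNA beside that of the epithelium. Neutrophil markers summed to between 17.9 and 96.9 RPKM in normal libraries and to between 217 and 1757 in tumors. Of 10 mitosis genes, 8 were higher in PCT vs. PCN and 5 in PST vs. PSN. PCN library 2 held the lowest muscle sum and the highest neutrophil sum of the normal libraries, and results that rest on it are given with and without it. In bulk tissue, fewer cells of a type and less RNA per cell cannot be told apart.

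Between PCT and PCN, 5 of the 30 members tested were higher and 1 was lower, beside 21.0% of all 11544 genes higher and 11.7% lower. Between PST and PSN, 7 members were higher and 1 was lower, beside 25.9% and 16.5% of all genes. These shares of members, 20% and 26.7% called in either direction, stand beside 32.7% and 42.3% of all genes. Pfkp, Slc16a3, Hk3, Hif1a and Pgk1 rose on both diets, Pfkfb3 and Kdm3a rose in PST vs. PSN, Pfkm fell in PST vs. PSN and Ankrd37 fell in PCT vs. PCN. Calls were made with limma on log2(RPKM + 0.5), at a p under 0.05 after Benjamini-Hochberg adjustment over all genes tested, and fold changes are on that scale, which understates changes of genes near or below 1 RPKM.

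The median log2 fold change over the members was 0.04 in PCT vs. PCN and 0.40 in PST vs. PSN, where the median over all genes tested was 0.13 and 0.12. Scaling the libraries by the median of ratios brought the median over all genes to 0.01 in both. With that scaling, the members called were 5 higher and 2 lower in PCT vs. PCN, and 6 higher and 4 lower in PST vs. PSN, beside 30% and 41.9% of all genes called. Against WT colon, 9 members were higher and 1 lower in PCT vs. WCN (24.9% and 14.5% of all genes), and 9 were higher and 3 lower in PST vs. WSN (24.2% and 19.7% of all genes). The comparisons with PCN and WCN share the PCT libraries, and those with PSN and WSN share the PST libraries.

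**Figure D1:**
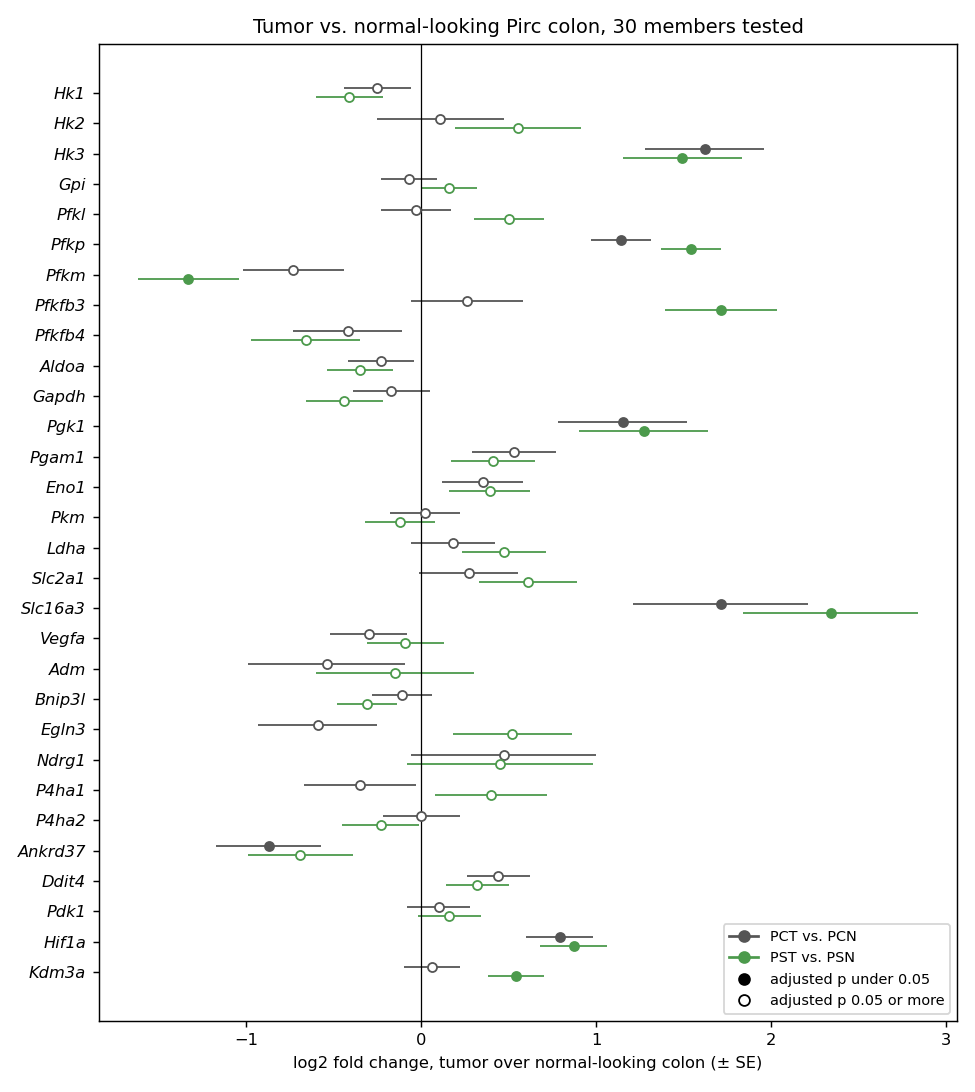
Log2 fold change (x axis, on log2(RPKM + 0.5)) of the 30 members tested (y axis) between tumor and normal-looking Pirc colon, for the control diet (gray) and SPI (green), with bars of 1 SE from limma and filled points at an adjusted p under 0.05. Slc16a3, Hk3, Pfkp, Pgk1 and Hif1a lie to the right on both diets, and the filled points at the left are Pfkm for SPI and Ankrd37 for the control diet.

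Pfkp, the platelet-type phosphofructokinase, showed the clearest difference. Its RPKM was 219.7, 208.5 and 192.9 in PCT and 186.9, 205.4 and 198.0 in PST. In normal tissue it was 80.7, 122.7 and 82.9 in PCN, 70.7, 70.6 and 61.0 in PSN, 50.0, 65.9 and 61.1 in WCN, and 52.5, 76.9 and 58.2 in WSN. Every tumor lay above every normal library, and the highest normal value was that of PCN library 2. Pfkp rose 2.20-fold in PCT vs. PCN, or by 1.14 on the log2 scale (SE 0.17, limma adjusted p = 2.61e-04), and 2.91-fold in PST vs. PSN (1.54, SE 0.17, adjusted p = 1.14e-05). Both calls held with any 1 library left out, as did those against WT colon (1.81 in PCT vs. WCN and 1.66 in PST vs. WSN, adjusted p = 3.63e-06 and 6.12e-06).

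The other phosphofructokinases did not follow. Pfkm, the muscle-type enzyme, was 3.02, 4.06 and 2.91 RPKM in PCT and 3.74, 1.23 and 3.02 in PST, against 6.71, 5.64 and 5.15 in PCN, 6.85, 5.26 and 9.29 in PSN, 8.05, 8.32 and 8.36 in WCN and 12.1, 9.76 and 7.75 in WSN. All tumors were below all normal libraries. Pfkm fell in PST vs. PSN (log2 fold change -1.33, SE 0.29, adjusted p = 0.00165) and against WT colon on both diets (-1.20 in PCT vs. WCN, adjusted p = 0.00366, and -1.79 in PST vs. WSN, adjusted p = 1.63e-04), while PCT vs. PCN gave -0.73 (SE 0.29, adjusted p = 0.0597). Pfkl, the liver-type enzyme, was 31.6 to 47.3 RPKM in normal tissue and 36.0 to 70.8 in tumors. It was not called in any comparison in the fit of all libraries (adjusted p = 0.0536 in PST vs. PSN).

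As a share of the RPKM of the 3 phosphofructokinase genes, Pfkp made up 56.9% ± 1.41 (SD, n = 3) in WCN, 54.6% ± 3.97 in WSN, 64.6% ± 4.99 in PCN, 62.7% ± 2.96 in PSN, 81.2% ± 2.39 in PCT and 79.5% ± 6.90 in PST. Pfkm made up 8.03% ± 0.811 in WCN and 1.31% ± 0.280 in PCT. The sum of the 3 genes was 146.6 ± 25.3 RPKM in PCN and 255.0 ± 14.9 in PCT, and 107.5 ± 4.07 in PSN and 248.3 ± 12.3 in PST. Of the 14 smooth muscle markers, 12 were lower in PCT vs. PCN and 13 in PST vs. PSN (medians -2.86 and -3.55), none was at 0 throughout a group, and Cnn1, the smooth muscle calponin gene, went from 206.9 ± 69.5 RPKM in PCN to 9.82 ± 10.5 in PCT. The part of muscle RNA in the values of Pfkm was not tested.

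**Figure D2:**
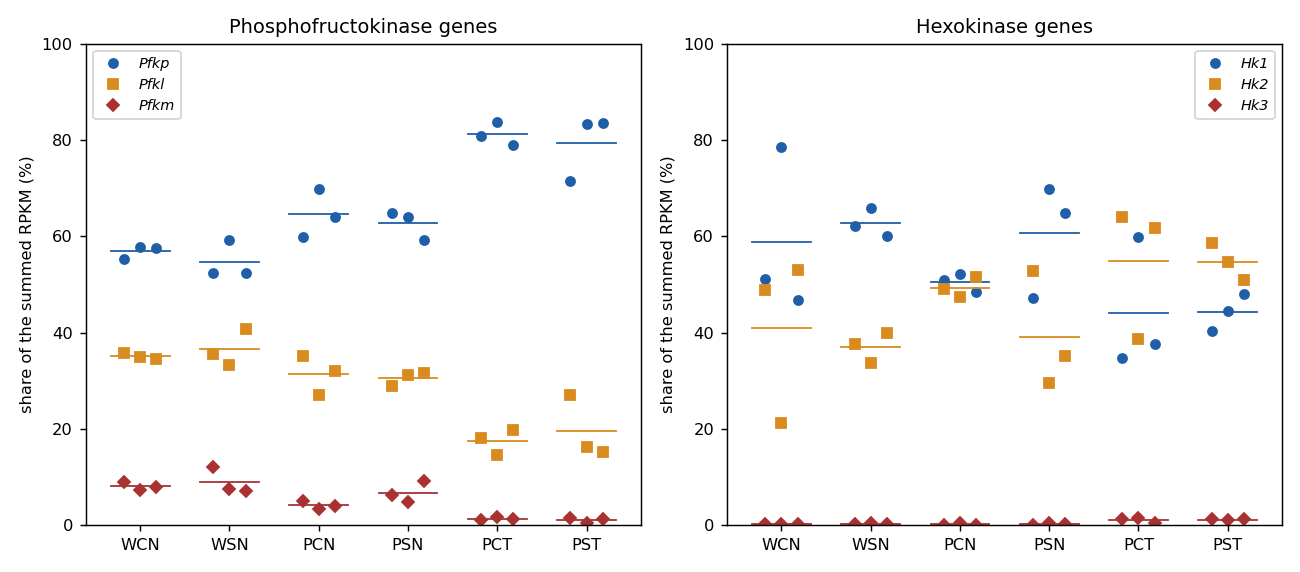
Share of the summed RPKM (y axis, percent) held by each phosphofructokinase gene (left) and each hexokinase gene (right) in the 18 libraries, by group (x axis), with points for libraries and lines for group means of 3. Pfkp holds 52.3% to 69.8% in normal libraries and 71.5% to 83.8% in tumors, and Hk1 and Hk2 share most of the hexokinase RPKM in every group.

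Hk1 and Hk2 encode the hexokinases bound to mitochondria, and Hk3 encodes an isozyme found mainly in myeloid cells. Hk1 was 68.3 to 90.9 RPKM in tumors and 74.0 to 133.7 in normal tissue, and Hk2 was 58.8 to 140.6 and 36.0 to 108.5. Neither was called in any comparison in the fit of all libraries. With median-of-ratios scaling, Hk1 was called lower in PST vs. PSN (log2 fold change -0.52, adjusted p = 0.0449). In a fit of 2 groups alone, Hk2 was called higher in PST vs. WSN (0.77, adjusted p = 0.0182). Hk3 was low throughout but higher in tumors, at 2.53, 2.13 and 1.11 RPKM in PCT and 2.29, 1.81 and 1.94 in PST. Normal tissue held 0.16, 0.59 and 0.12 in PCN, 0.15, 0.95 and 0.26 in PSN, 0.16, 0.23 and 0.20 in WCN, and 0.37, 0.74 and 0.24 in WSN. No normal library reached the lowest tumor.

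Hk3 rose by a log2 fold change of 1.62 in PCT vs. PCN (SE 0.34, adjusted p = 0.00247) and 1.49 in PST vs. PSN (SE 0.34, adjusted p = 0.00273). Against WT colon it was 1.75 in PCT and 1.43 in PST (adjusted p = 9.55e-04 and 0.00334). Of the neutrophil markers, 8 of 9 tested were higher in PCT vs. PCN and 7 of 9 in PST vs. PSN. S100a9, a calprotectin subunit of neutrophils, was 44.1 ± 21.5 RPKM in PCN and 793.7 ± 109 in PCT, and 26.6 ± 4.47 in PSN and 809 ± 681 in PST. Of the macrophage and monocyte markers, 1 of 9 was higher and 1 lower in each of these comparisons, and Marco was at 0 in every library. PST library 2 had the lowest neutrophil sum of the tumors, 217 RPKM, with Hk3 at 1.81. The part of these cells in the rise of Hk3, and of the other members that rose in tumors, was not tested.

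Slc16a3 encodes MCT4, the transporter that exports lactate from glycolytic cells. It was 197.1, 126.6 and 135.7 RPKM in PCT and 261.6, 76.2 and 94.7 in PST. It was 34.3, 75.1 and 36.7 in PCN, 23.2, 31.8 and 18.6 in PSN, 8.46, 21.3 and 15.8 in WCN, and 12.3, 43.9 and 19.6 in WSN. The lowest tumor, PST library 2, lay just above the highest normal library, PCN library 2. Slc16a3 rose 3.27-fold in PCT vs. PCN (1.71 on the log2 scale, SE 0.50, adjusted p = 0.0176), 5.07-fold in PST vs. PSN (2.34, SE 0.50, adjusted p = 0.00187) and 10.3-fold in PCT vs. WCN (3.36, SE 0.50, adjusted p = 1.51e-04). The call in PCT vs. PCN was lost without PCN library 1, PCN library 3 or PCT library 1 (adjusted p = 0.0626, 0.0721 and 0.0726) and held without PCN library 2. Slc2a1, which encodes GLUT1, was 90.7 to 184.6 RPKM in tumors and 72.5 to 141.9 in normal tissue and was called in PST vs. WSN alone (0.79, SE 0.28, adjusted p = 0.0337), where leaving out any of 4 single libraries ended the call: WSN 1, WSN 3, PST 1 or PST 2 (adjusted p = 0.109, 0.0734, 0.124 and 0.0827). Median-of-ratios scaling ended it too (0.74, adjusted p = 0.0615).

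Of the enzymes below phosphofructokinase, Pgk1 alone was called in tumor vs. normal-looking colon. Pgk1, the phosphoglycerate kinase that makes the first ATP of the pathway, was 23.3, 16.01 and 20.6 RPKM in PCT and 29.9, 7.60 and 9.19 in PST. It was 8.44, 10.98 and 6.82 in PCN, 5.52, 4.35 and 5.37 in PSN, 5.98, 7.24 and 4.69 in WCN, and 6.70, 4.08 and 7.01 in WSN. The PCT libraries lay above all normal libraries, whereas PST libraries 2 and 3 overlapped with PCN. Pgk1 rose by 1.15 on the log2 scale in PCT vs. PCN (SE 0.37, adjusted p = 0.0269) and by 1.27 in PST vs. PSN (SE 0.37, adjusted p = 0.0129). Without PST library 1 the difference in PST vs. PSN was 0.67 and no longer called (adjusted p = 0.0515), and that in PCT vs. PCN was lost without PCN 1, PCN 3, PCT 1 or PCT 3 (adjusted p = 0.0631, 0.108, 0.0963 and 0.0658). Against WT colon, Pgk1 was higher by 1.66 in PCT (adjusted p = 0.00258) and by 1.09 in PST (adjusted p = 0.0269), the latter lost without WSN 2 (0.86, adjusted p = 0.109) or PST 1 (0.50, adjusted p = 0.139). In fits of 2 groups alone, Pgk1 was not called in PST vs. PSN or PST vs. WSN (adjusted p = 0.0668 and 0.122).

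Gpi, the isomerase between the hexokinase and phosphofructokinase steps, was the most abundant member at 199.2 to 316.8 RPKM. It was not called in any comparison in the fit of all libraries. Pgam1, phosphoglycerate mutase, was called in PCT vs. WCN alone (log2 fold change 0.68, SE 0.24, adjusted p = 0.0329), and that call was lost without WCN 1, WCN 3, PCT 1 or PCT 3 (adjusted p = 0.0594, 0.126, 0.0901 and 0.0977) or with median-of-ratios scaling (adjusted p = 0.0736). Aldoa, Gapdh, Eno1, Pkm and Ldha, which cover aldolase to lactate dehydrogenase, were not called in any comparison in the fit of all libraries. With same-numbered tumor and normal-looking libraries taken as 1 rat, Ldha was called in PST vs. PSN (0.47, adjusted p = 0.0357). In PCT vs. PCN their log2 fold changes were -0.23 for Aldoa, -0.17 for Gapdh, 0.35 for Eno1, 0.02 for Pkm and 0.18 for Ldha. Gapdh, the internal control of the study's RT-qPCR, ran from 10.3 to 24.4 RPKM over the 18 libraries.

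Many of these enzymes have pseudogenes, whose reads may not be told apart from those of the gene, so their levels are given as uncertain. RefSeq (GRCr8) names 81 pseudogenes after Gapdh, 31 after Eno1, 30 after Ldha, 19 after Pkm, 13 after Pgam1, 9 after Aldoa, and 8 each after Pgk1 and Bnip3. These 8 members had mean RPKM values of 0.199 to 16.6 over the 18 libraries, with Eno1 at 2.68, Pgk1 at 10.2, Pkm and Aldoa at 10.4 and Gapdh at 16.6. The 21 members with no named pseudogene had a median of 41.6 and a range of 0.888 to 249, and 9 of them were below 20 RPKM. Over all entries with a RefSeq symbol, the median was 7.25 RPKM for the 204 with 5 or more named pseudogenes and 5.99 for the 13554 with none. The limit of 5 was chosen after these values were seen. How the authors treated reads that match several places is not given in the sources used here, and the part of such reads in these low values, or in the 0 of Tpi1, was not tested. Of the members called in PCT vs. PCN, 4 of 6 have no named pseudogene, and in PST vs. PSN 7 of 8 have none.

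**Figure D3:**
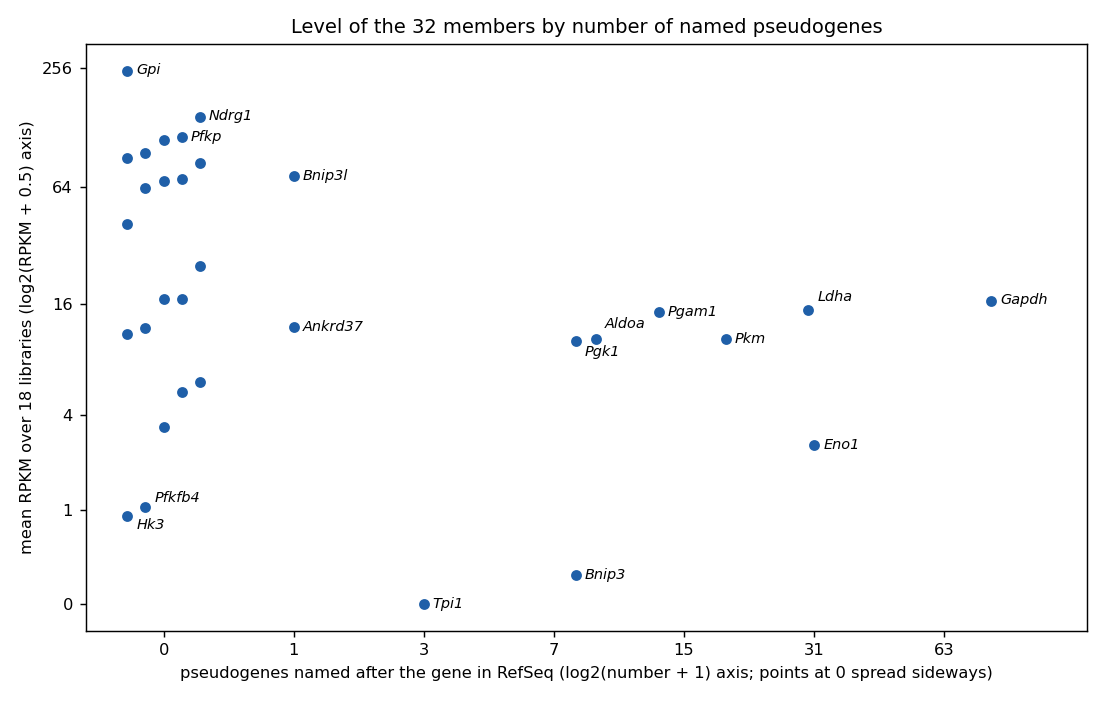
Mean RPKM over 18 libraries (y axis, log2(RPKM + 0.5) spacing) of the 32 members against the number of pseudogenes named after them in RefSeq GRCr8 (x axis, log2(number + 1) spacing). The 8 members with 8 or more named pseudogenes all lie at or below 16.6 RPKM, and Tpi1, with 3, is listed at 0.

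Pfkfb3 makes the kinase whose product, fructose 2,6-bisphosphate, activates phosphofructokinase, and it was the 1 member called between genotypes. It was 0.69, 1.20 and 1.01 RPKM in WCN and 1.53, 3.00 and 1.32 in WSN. Normal-looking Pirc colon held 6.04, 3.56 and 4.43 on the control diet and 1.03, 1.51 and 1.68 on SPI. Tumors held 7, 3.54 and 6.86 in PCT and 8.27, 5.06 and 4.28 in PST. The PCN libraries thus lay within the range of the tumors, and the PSN libraries within the range of WT colon.

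In PCN vs. WCN, Pfkfb3 was 1 member called higher of the 30 (log2 fold change 1.81, SE 0.32, adjusted p = 0.0441), where 0.104% of all genes were higher, and 0 members were called lower, where 0.0260% of all genes were lower. The call did not hold for 14 of the 18 libraries left out in turn (adjusted p up to 0.218), among them PCN library 2 (adjusted p = 0.0883), nor in a fit of these 2 groups alone (adjusted p = 0.151). In PSN vs. PCN the log2 fold change of Pfkfb3 was -1.43 (SE 0.32, adjusted p = 0.377), and the interaction of genotype with diet was -2.12 (SE 0.45, adjusted p = 0.414). In tumors, Pfkfb3 rose in PST vs. PSN (1.71, SE 0.32, adjusted p = 6.37e-04), in PCT vs. WCN (2.06, SE 0.32, adjusted p = 1.70e-04) and in PST vs. WSN (1.39, SE 0.32, adjusted p = 0.0027). PCT vs. PCN was 0.26 (SE 0.32), but the difference between the diets, an interaction of 1.45 (SE 0.45), was not called (adjusted p = 1.00). Pfkfb4, the related isozyme, stayed at 0.48 to 1.93 RPKM and was not called in the fit of all libraries.

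**Figure D4:**
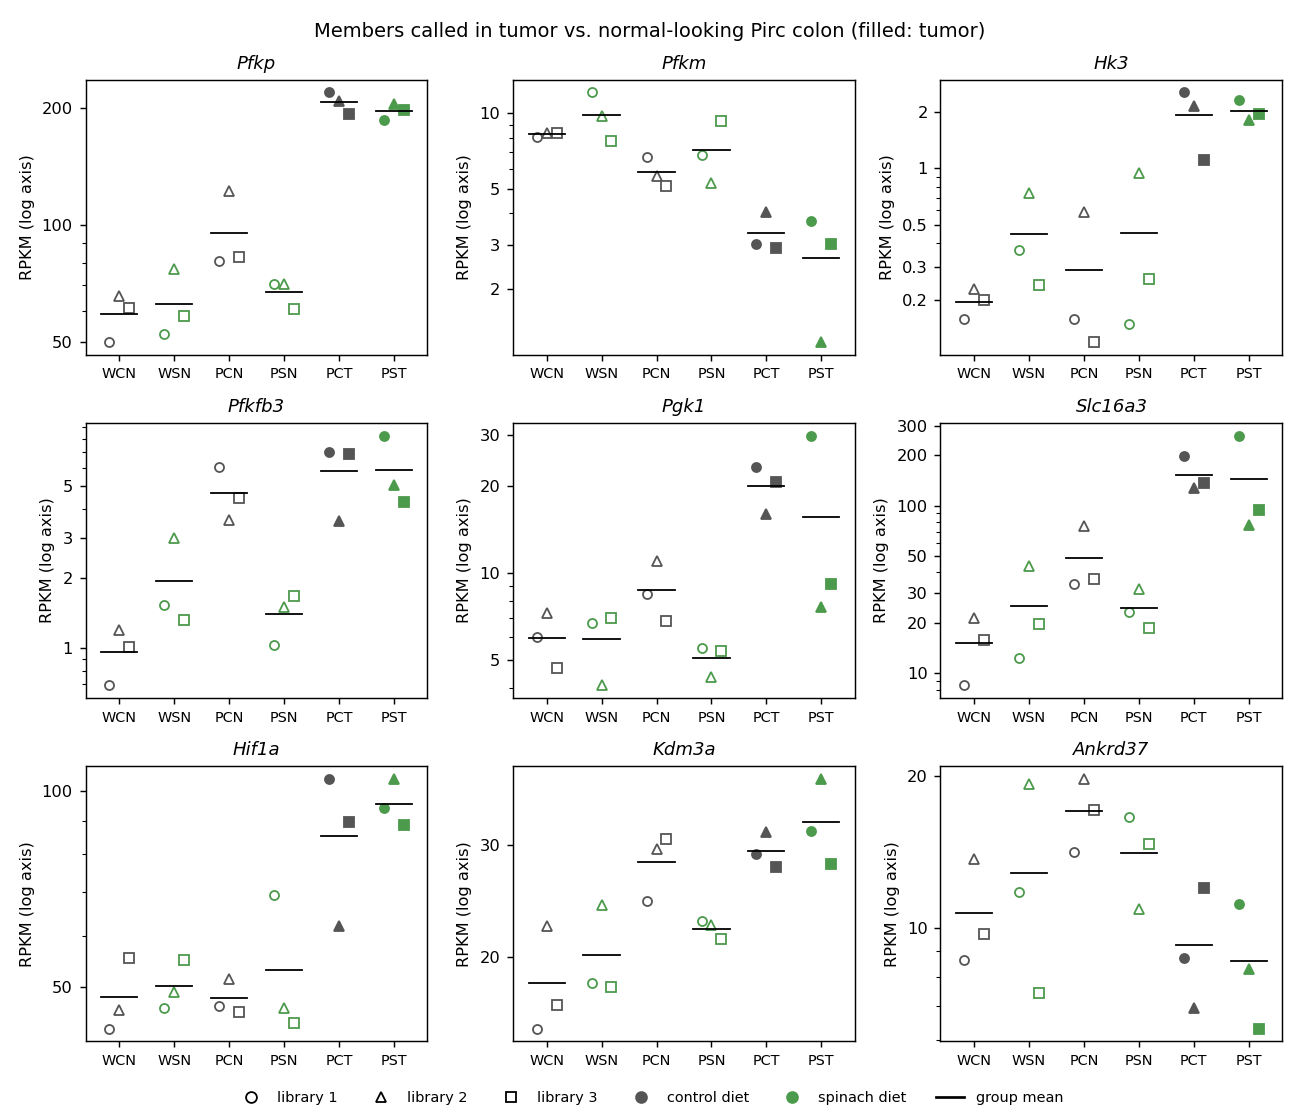
RPKM (y axis, log scale, different range in each panel) of the 9 members called in PCT vs. PCN or PST vs. PSN, by group (x axis), with 1 point for each of 3 libraries and a line for their mean. In the panels for Pfkp, Hk3 and Slc16a3 all 6 tumors lie above all 12 normal libraries, and in that for Pfkfb3 the PCN libraries, at 3.56 to 6.04, lie above PSN, at 1.03 to 1.68.

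Diet gave no calls among the members. For PSN vs. PCN, 0 of 30 members were called, beside 0.00866% of all genes, and 6 had an unadjusted limma p under 0.05 (20%, beside 5.32% of all genes). They were Pfkl, Pfkp, Pfkfb3, Ddit4 and Kdm3a, lower in PSN, and Gapdh, higher. For WSN vs. WCN, PST vs. PCT and PSN vs. WSN, 0 members were called, beside 0% of all genes in each, and 1, 2 and 0 members had an unadjusted p under 0.05 (3.26%, 7.97% and 8.12% of all genes). The 2 in PST vs. PCT were Ddit4 (log2 fold change -0.66, SE 0.18, adjusted p = 0.506) and P4ha2 (-0.67, SE 0.22, adjusted p = 0.528). The interactions of diet with tumor and with genotype gave 0 calls, beside 0% of all genes, with 3 and 7 members at an unadjusted p under 0.05 (3.95% and 5.07% of all genes).

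Before adjustment, 8 of 30 members had a p under 0.05 in PCN vs. WCN (26.7%, beside 13.4% of all genes), all higher in PCN: Pfkp, Pfkfb3, Slc16a3, Vegfa, Egln3, Ankrd37, Ddit4 and Kdm3a. Without PCN library 2, these counts became 7 (PCN vs. WCN), 3 (PSN vs. PCN) and 2 (interaction of genotype with diet), beside 11.4%, 4.24% and 4.12% of all genes. The interaction count was also 2 with median-of-ratios scaling and 1 without WCN 1, WSN 2 or PSN 3, and that of PSN vs. PCN was 2 without PSN 3. These comparisons share the PCN libraries, and no test over the list was run. Ddit4, an mTORC1 inhibitor gene induced by hypoxia and other stresses, shows the levels behind them: 59.6 ± 6.17 RPKM in WCN, 107.7 ± 16.1 in PCN, 74.0 ± 11.9 in PSN and 61.6 ± 17.1 in WSN (SD, n = 3 in each).

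Hif1a encodes the regulated subunit of HIF-1. It was 104.4, 62.1 and 89.6 RPKM in PCT and 94.1, 104.2 and 88.6 in PST, and 46.8, 51.5 and 45.8 in PCN, 69.2, 46.4 and 44.0 in PSN, 43.2, 46.1 and 55.5 in WCN and 46.5, 49.1 and 54.9 in WSN. Tumor and normal groups did not overlap within a diet, although PSN library 1 exceeded PCT library 2. Hif1a rose 1.73-fold in PCT vs. PCN (0.79 on the log2 scale, SE 0.19, adjusted p = 0.00485) and 1.82-fold in PST vs. PSN (0.87, SE 0.19, adjusted p = 0.00172), with any 1 library left out as well, and rose against WT colon by 0.79 in PCT and 0.92 in PST (adjusted p = 0.00344 and 0.00102). Other parts of the HIF machinery moved in both directions. Of 12 tested genes of a list of subunits and regulators, 2 were higher and 3 lower in both PCT vs. PCN and PST vs. PSN, 3 higher and 1 lower in PCT vs. WCN, and 4 higher and 2 lower in PST vs. WSN. In that order, the shares called were 41.7%, 41.7%, 33.3% and 50%, beside 32.7%, 42.3%, 39.4% and 43.9% of all genes. Arnt2, a partner subunit, rose by 2.24 (SE 0.42, adjusted p = 0.00122) and Hif3a fell by 1.91 on the log2 scale (SE 0.35, adjusted p = 9.93e-04) in PCT vs. PCN. Hif3a was 8.35 ± 3.01 RPKM in PCN, 2.04 ± 1.57 in PCT and 3.09 ± 0.431 in WCN. Epas1, which encodes HIF-2α and was picked out after its values were seen, fell by 1.67 (SE 0.27, adjusted p = 4.44e-04), from 82.4, 98.04 and 128.8 RPKM in PCN to 22.9, 30.6 and 44.7 in PCT. In PCN vs. WCN, Epas1 was higher by 0.94 (SE 0.27) but not called (adjusted p = 0.179). Arnt, of the same list, was not called in PCT vs. PCN (-0.08, SE 0.18, adjusted p = 0.753).

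Several known targets of HIF overlapped between tumor and normal tissue. Vegfa, the angiogenic growth factor gene, was 4.51 to 5.95 RPKM in tumors and 3.58 to 7.37 in normal tissue. Adm, the adrenomedullin gene, was 6.64 to 21.1 and 5.26 to 19.0, and Egln3, which encodes the inducible prolyl hydroxylase PHD3, was 56.5 to 122.2 and 33.1 to 104.8. On the control diet, all PCT libraries lay below all PCN libraries for Vegfa (4.51 to 5.95 and 6.03 to 7.37), Adm (7.67 to 8.82 and 9.75 to 19.0) and Egln3 (56.5 to 72.1 and 90.0 to 104.8). PST and PSN overlapped for each of these genes, as did PCT and WCN. In PCT vs. WCN the log2 fold change was 0.23 for Vegfa (SE 0.22), -0.18 for Adm (SE 0.45) and 0.29 for Egln3 (SE 0.34). The share of all genes without overlap was not counted. Ndrg1, a stress-induced gene of differentiated epithelium, was the most variable member, at 83.2 to 321.2 RPKM in tumors, with a within-group SD of 0.72 on the log2 scale where the median member had 0.29. P4ha1, of collagen prolyl hydroxylase, and Pdk1, a pyruvate dehydrogenase kinase gene, were 10.3 to 31.4 and 14.7 to 24.6 RPKM in tumors. Ndrg1, P4ha1 and Pdk1 overlapped between tumor and normal-looking tissue on both diets. None of these 6 genes was called in any comparison in the fit of all libraries. With same-numbered libraries taken as 1 rat, Egln3 was called in opposite directions, lower in PCT vs. PCN (-0.59, adjusted p = 0.0346) and higher in PST vs. PSN (0.52, adjusted p = 0.0403). Bnip3l, the mitophagy receptor gene related to Bnip3, and P4ha2 fell in PST vs. WSN alone (log2 fold change -0.52, SE 0.17, adjusted p = 0.0186, and -0.62, SE 0.22, adjusted p = 0.0287). The first call was lost without WSN 3 or PST 2 (adjusted p = 0.068 and 0.0912) and the second without WSN 2, WSN 3, PST 1 or PST 2 (adjusted p = 0.128, 0.0631, 0.0538 and 0.108), and neither held in a fit of 2 groups alone (adjusted p = 0.0792 and 0.0773). With median-of-ratios scaling, Bnip3l was also called lower in PST vs. PSN (-0.43, adjusted p = 0.0354).

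Kdm3a, Ddit4 and Ankrd37 were called as well. Kdm3a, a histone demethylase gene, was 29.0, 31.4 and 27.7 RPKM in PCT, 31.6, 38.2 and 28.0 in PST, 24.5, 29.6 and 30.7 in PCN, 22.7, 22.4 and 21.3 in PSN, 15.4, 22.4 and 16.8 in WCN and 18.2, 24.2 and 17.9 in WSN. It rose in PST vs. PSN (log2 fold change 0.54, SE 0.16, adjusted p = 0.0131), a call lost without PST library 2 (adjusted p = 0.0554) or with median-of-ratios scaling (0.42, adjusted p = 0.0555). It also rose against WT colon by 0.69 on both diets (SE 0.16, adjusted p = 0.00294 and 0.00278), while PCT and PCN overlapped. Ddit4 rose in PCT vs. WCN (1.28, SE 0.18, adjusted p = 7.88e-05) and PST vs. WSN (0.61, SE 0.18, adjusted p = 0.0128), the latter lost without WSN library 1 (adjusted p = 0.0743) or in a fit of 2 groups alone (adjusted p = 0.0715). In PCT vs. PCN it was 0.44 (SE 0.18, adjusted p = 0.0735).

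Ankrd37, an ankyrin repeat gene known as a HIF-1 target, went the other way. It was 8.73, 6.95 and 12.01 RPKM in PCT and 11.2, 8.28 and 6.31 in PST, against 14.1, 19.7 and 17.1 in PCN, 16.6, 10.9 and 14.6 in PSN, 8.63, 13.7 and 9.74 in WCN, and 11.8, 19.3 and 7.42 in WSN. PCT lay below PCN without overlap but overlapped with WCN. Ankrd37 fell by 0.87 on the log2 scale in PCT vs. PCN (SE 0.30, adjusted p = 0.0378). The call was lost without PCN 2, PCN 3, PCT 1 or PCT 2 (adjusted p = 0.11, 0.0966, 0.0979 and 0.139) or with no filter on low values (adjusted p = 0.0511). The difference in PST vs. PSN was -0.69 (SE 0.30, adjusted p = 0.0754). With same-numbered Pirc libraries taken as 1 rat, or with median-of-ratios scaling, Ankrd37 was also called in PST vs. PSN (adjusted p = 0.0451 and 0.0467). A fit of the Pirc libraries without that pairing called it as well (adjusted p = 0.0428).

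**Figure D5:**
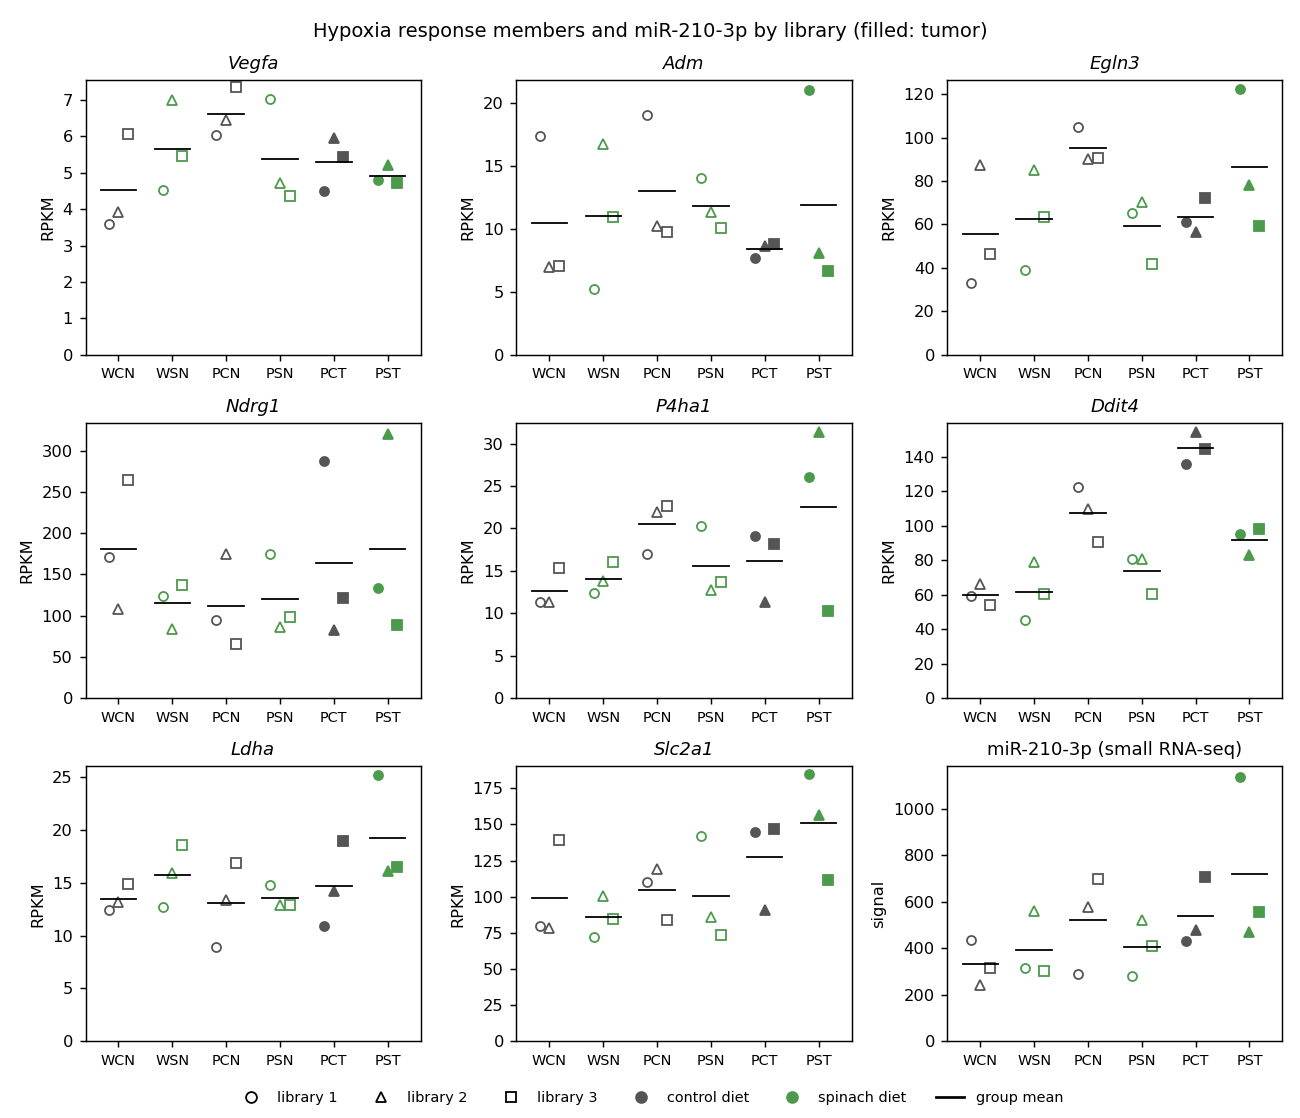
RPKM (y axis from 0, different range in each panel) of 8 members, and signal of miR-210-3p in the small RNA-seq libraries, by group (x axis), with 1 point for each of 3 libraries and a line for their mean. Ddit4 lies higher in PCT (136.2 to 154.3) than in WCN (53.8 to 66.1), and over all groups the tumor and normal ranges of Vegfa, Adm and Ndrg1 overlap. PST library 1 is the highest point for Adm, Egln3, Ldha, Slc2a1 and miR-210-3p.

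To show sequences of members that did and did not change in tumors, RefSeq promoters (GRCr8, 250 bases before to 50 after a start site) were searched for ACGTG and GCGTG, the core of the hypoxia response element, on both strands. The palindrome CACGTG counts once on each strand. Of the members, 29 had at least 1 promoter and 35 windows in all; Pgk1, Ndrg1 and Bnip3l had none. A core was found in 22 of the 35 windows (62.9%), in 60.4% of windows of the genes tested and in 41.6% of all 33469 windows. Shown are Pfkp (2 cores) and Slc16a3 (0 cores), which rose in tumors, Ankrd37 (5 cores), which fell in PCT vs. PCN, and Ldha (6 cores), which was not called, each 5′ to 3′ along the gene with the cores in capitals. A match is a description of letters and not a bound site.
Pfkp promoter, chr17:68639563-68639862 (+ strand): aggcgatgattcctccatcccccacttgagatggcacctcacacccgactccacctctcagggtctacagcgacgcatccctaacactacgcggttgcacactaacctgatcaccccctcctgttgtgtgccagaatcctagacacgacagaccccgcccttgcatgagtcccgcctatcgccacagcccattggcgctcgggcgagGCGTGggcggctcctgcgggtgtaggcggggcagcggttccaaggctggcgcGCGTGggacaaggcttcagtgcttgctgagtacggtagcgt
Slc16a3 promoter, chr10:106712078-106712377 (+ strand): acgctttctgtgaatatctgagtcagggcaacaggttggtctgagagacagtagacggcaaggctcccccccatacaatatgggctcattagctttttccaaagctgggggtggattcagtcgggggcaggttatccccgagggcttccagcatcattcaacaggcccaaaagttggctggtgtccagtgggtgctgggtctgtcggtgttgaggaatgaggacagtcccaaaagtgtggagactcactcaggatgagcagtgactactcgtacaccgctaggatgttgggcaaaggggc
Ankrd37 promoter, chr16:53001257-53001556 (+ strand): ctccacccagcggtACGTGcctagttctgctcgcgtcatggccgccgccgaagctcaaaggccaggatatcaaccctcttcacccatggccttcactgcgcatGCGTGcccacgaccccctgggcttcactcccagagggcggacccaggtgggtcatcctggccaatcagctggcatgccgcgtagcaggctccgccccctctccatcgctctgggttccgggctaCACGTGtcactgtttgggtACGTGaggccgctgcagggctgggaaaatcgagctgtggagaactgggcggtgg
Ldha promoter, chr1:106507842-106508141 (+ strand): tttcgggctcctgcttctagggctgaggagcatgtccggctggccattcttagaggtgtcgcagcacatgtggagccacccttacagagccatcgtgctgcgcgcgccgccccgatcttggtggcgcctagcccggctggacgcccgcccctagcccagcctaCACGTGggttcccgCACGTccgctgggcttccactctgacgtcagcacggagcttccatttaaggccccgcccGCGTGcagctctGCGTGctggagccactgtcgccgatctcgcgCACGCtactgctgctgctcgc

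miR-210, the miRNA most widely induced by HIF, was read from the small RNA-seq libraries of the same groups, as a readout that did not enter the choice of genes. Its main mature form is shown 5′ to 3′ with the seed, bases 2 to 8, in capitals.
miR-210-3p: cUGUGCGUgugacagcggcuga
The signal of miR-210-3p, reads scaled by 1 factor for each library, was 434, 243 and 313 in WCN, 315, 560 and 301 in WSN, 291, 579 and 695 in PCN, and 281, 522 and 409 in PSN. Tumors held 432, 477 and 707 in PCT and 1137, 469 and 555 in PST. Tumor and normal libraries overlapped on both diets. The difference of miR-210-3p was 0.10 on the log2 scale in PCT vs. PCN (SE 0.38, adjusted p = 0.913) and 0.77 in PST vs. PSN (SE 0.38, adjusted p = 0.153). It was not called by limma in these or in any other comparison, while 15.8% and 22.1% of the 494 miRNAs tested were called in these. The other arm, miR-210-5p, was at or below 4.91 in 17 libraries and at 19.6 in PST library 1.

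Genes of the same pathways outside the set moved in both directions. Of 12 tested genes for other isozymes and side steps of glycolysis, 2 were higher and 2 lower in both PCT vs. PCN and PST vs. PSN. The share called, 33.3% in each, stands beside 32.7% and 42.3% of all genes. Pklr, the liver and red cell pyruvate kinase gene, rose from 33.1 ± 6.47 RPKM in PCN to 77.9 ± 31.8 in PCT (log2 fold change 1.16, SE 0.29, adjusted p = 0.00655). Of 17 tested genes of sugar and lactate transport and pyruvate entry, 3 were higher and 5 lower in PCT vs. PCN, and 3 and 6 in PST vs. PSN. The shares called were 47.1% and 52.9%, beside the same shares of all genes. Pdk3, a pyruvate dehydrogenase kinase gene, rose by 2.01 (SE 0.55, adjusted p = 0.0126) and Slc2a4, of the muscle and fat glucose transporter GLUT4, fell by 2.43 on the log2 scale (SE 0.43, adjusted p = 7.90e-04). Slc16a1, of the transporter MCT1 and picked out after its values were seen, was 79.7, 67.8 and 104.1 RPKM in PCT and 207.8, 153.3 and 253.6 in PCN (-1.28, SE 0.28, adjusted p = 0.00296), opposite to Slc16a3. Mature colonocyte markers summed to between 2210 and 12947 RPKM in normal libraries and to between 623 and 3500 in tumors. Of 9 tested, 5 were lower in PCT vs. PCN and 4 in PST vs. PSN. Ceacam1 was higher in both, and the shares called were 66.7% and 55.6%. The part of mature colonocytes in these falls was not tested.

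Of 42 tested HIF targets outside the set, 6 were higher and 6 lower in PCT vs. PCN, with a median of -0.08, and 12 were higher and 10 lower in PST vs. PSN, with a median of -0.02. The shares called, 28.6% and 52.4%, stand beside 32.7% and 42.3% of all genes. Angptl4, of a lipoprotein lipase inhibitor, rose from 0.823 ± 0.627 to 6.65 ± 3.00 RPKM in PCT (log2 fold change 2.48, SE 0.44, adjusted p = 8.29e-04), with WT colon at 2.30 ± 1.11 in WCN. Stc1, of stanniocalcin 1, rose from 2.13 ± 0.319 to 11.5 ± 2.56 (2.18, SE 0.31, adjusted p = 2.03e-04). Ppp1r3c, of a glycogen-targeting phosphatase subunit, fell from 5.81 ± 2.02 to 0.840 ± 0.467 (-2.26, SE 0.34, adjusted p = 2.82e-04), and Fam162a, a mitochondrial gene, from 21.5 ± 3.53 to 9 ± 2.48 (-1.23, SE 0.23, adjusted p = 0.00116). In the diet comparisons and in PCN vs. WCN and PSN vs. WSN, 0 of the 42 were called.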

How the data were processed

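RNA-seq and small RNA-seq libraries, 18 of each, came from 6 groups of 3 rats. The RNA was poly(A)-selected for RNA-seq, and libraries were directional and read from both ends, per the labels. Bowtie2 and DESeq2 are named by the submitters' processing notes. For settings, genome build, annotation and reads with several matches, the sources used here give nothing. RPKM values were deposited by the authors with 2 decimals. Of 17378 entries, 26 whose names had been turned into dates were left out. For miRNAs, the deposited signal values are reads divided by 1 factor for each library. Total miRNA reads recovered from their steps ran from 724954 to 5376082. These totals take the smallest value of each library as 2 reads, which was not tested. RPKM values carry no read totals, so relative depth was estimated from the spacing of low values, by an estimator tested on simulated data. No columns were left unmapped.

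RPKM are not counts, so groups were compared with limma 3.58.1 (R 4.3.3, trend and robust moderation) on log2(RPKM + 0.5), in 1 fit over 18 libraries with 12 residual degrees of freedom, as were log2(signal + 0.5) values of 494 miRNAs that reached a signal of 1 in 3 or more libraries. The scripts were tested on simulated data. An exact permutation test of 3 against 3 rats cannot go below p = 0.1, so none was used. The members and lists were chosen with earlier results of these data known. All 32 members are accounted for. Values of each library are given for members called in tumor vs. normal-looking tissue or in a genotype or diet comparison, and from each other pathway list the largest rise and fall called in PCT vs. PCN at 5 RPKM or more on average in PCT or PCN are named (2 each way for HIF targets). The result for 1 gene that this rule names is not reported here. Sequences and pseudogene names are from RefSeq, GRCr8. Alternatives changed the pseudocount, filter, scaling, moderation, libraries and block.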

Additional observations from a re-analysis of the deposited data

How the results depend on the processing

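The 37 member calls over 5 comparisons were recomputed under the alternatives, which gave 931 values. Direction was kept in each, and the threshold was kept in 875 and lost in 56. Where the library left out belonged to neither group compared, the fold change could not move, so its direction was kept by design. Leaving out 1 library gave 3 to 8 members called in PCT vs. PCN (3 without PCN library 3 or without PCT library 1, where 20.1% and 20.5% of all genes were called, against 6 and 32.7%), 8 to 12 in PST vs. PSN, 9 to 11 in PCT vs. WCN, 10 to 13 in PST vs. WSN and 0 to 1 in PCN vs. WCN. Of all genes, 20.1% to 36.9% were called in PCT vs. PCN and 33.6% to 42.7% in PST vs. PSN. In PCT vs. WCN, PST vs. WSN and PCN vs. WCN, these shares were 30.3% to 43.7%, 36.9% to 43.9% and 0.026% to 0.122%. A fit of the 2 groups alone called 10 members in PCT vs. PCN, with Ddit4, Egln3, Pfkm and Pgam1 added to the 6, beside 30.9% of all genes. In PCN vs. WCN, 0 members were called with a pseudocount of 1, with no filter, with a mean of at least 5 RPKM (which leaves Pfkfb3 untested) or in the fit of 2 groups. In that order, 0.052%, 0.0751%, 0.116% and 0% of all genes were called. The median log2 fold change of members in PST vs. WSN, 0.32, ran from 0.07 (without PST library 1) to 0.41 over single libraries left out. The replicate block, which takes same-numbered tumor and normal-looking libraries of a diet as 1 rat (4 residual degrees of freedom), called 7 members in PCT vs. PCN and 11 in PST vs. PSN (28.6% and 40.3% of all genes), with Egln3 added to the first and Ankrd37, Egln3 and Ldha to the second. In 12 Pirc libraries without a block, added after seeing the data, 7 and 9 were called (30% and 40.1% of all genes). The study matched tissues within rats but does not state that the number marks the rat. Same-numbered libraries correlated, after removal of group means, at -0.0496 to 0.193, and 5 of 12 libraries correlated best with their own number. For miR-210-3p no alternative gave a call, and the planned count test on reads recovered from the signal was not run. The smallest change detectable with 3 rats in a group was not estimated.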

Other observations

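PST library 1 stood out among the members, which was noticed after the values were seen. It was the highest of the 18 libraries for 11 of the 30 members tested (10.9% of all genes tested were highest there): Pfkl, Pfkfb3, Pgk1, Pgam1, Eno1, Ldha, Slc2a1, Slc16a3, Adm, Egln3 and Pdk1. PST library 2 was highest for 4 members, Gpi, Ndrg1, P4ha1 and Kdm3a (13.3%, beside 15.1% of all genes), and PST library 3 for 0 (beside 6.36% of all genes). Ldha was 25.2 RPKM in PST library 1 and at most 19.0 elsewhere. Of the 42 HIF targets outside the set, 9 were highest in PST library 1 (21.4%), among them Ero1a, of an oxidase of the endoplasmic reticulum, at 95.6 RPKM against 11.5 to 49.2 elsewhere. The small RNA-seq library of the same group and number held the highest signal of miR-210-3p, 1137, against 243 to 707 in the other 17. The sources used here do not state that the same number marks the same rat in both assays. The neutrophil marker sum was also highest in PST library 1, at 1757 RPKM. Of the 9 neutrophil markers tested, however, S100a9 alone was highest there (11.1%), while 3 were highest in PCT library 1 and 3 in PCT library 2. The part of neutrophils in these values was not tested.

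The members varied unequally among rats of a group. The within-group SD on the log2 scale was 0.72 for Ndrg1, 0.68 for Slc16a3 and 0.61 for Adm, and 0.19 for Gpi and Kdm3a, against a median of 0.27 over all genes tested. Hk1 and Hk2 traded places between rats of 1 group: in WCN, Hk2 held 48.8%, 21.3% and 53.1% of the hexokinase RPKM.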
